A study of Mus musculus with 32 samples.

Results

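Trim12a and 7 neighbouring members of the tripartite motif (TRIM) gene family on mouse chromosome 7 were followed through RNA-seq libraries of ovarian cancer models and normal reproductive tissue. The genes are Trim6, Trim34a, Trim5, Trim12a, Trim12c, Trim30b, Trim30a and Trim30d. They were chosen by symbol, so they are 8 of the 55450 rows of the deposited gene table, and all 8 were found in it. Trim12a was itself picked because its level separates the oviduct-origin tumours from the remaining libraries, so its values are given as a description without a test. The other 7 were taken for their position, and the question was whether they follow Trim12a across the groups.

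The study measured bulk RNA from 26 mouse tumours and 6 normal tissue samples, all from females. In OSE-BPR mice (strain label FVB, carrying K18GT121 Tg/+ with the alleles Brca1 fl/fl and Trp53 fl/fl) adeno-Cre was injected under the ovarian bursa to start carcinoma in the ovarian surface epithelium. In Ad-BPR mice (C57Bl/6, same genotype) adeno-Cre went into the oviduct. In Pax8-BPR mice (C57Bl/6, same genotype plus Pax8-CreERT2 Tg/+) tamoxifen activated Cre in cells that use the Pax8 transgene. In Ovgp1-BPR mice (C57Bl/6, given on the sample labels as Ovgp1-CreERT2 Tg/+ and K18GT121 Tg/+ with Brca1 fl/fl and a knocked-in Trp53 KozR172H ki/+) tamoxifen activated Cre through the Ovgp1 transgene. The series text also gives this Trp53 mutation for the model but lists Trp53 fl/fl in its genotype, so the starting Trp53 allele is stated in different ways. The 3 models other than OSE-BPR are called oviduct-origin below. All tumours share the K18GT121 transgene, which the series text ties to inhibition of Rb, and all were taken at endpoint. Each model was sampled as primary tumours of the genetically engineered mice (GEMM) and as allografts of tumour into other mice. There were 3 GEMM tumours and 5 allografts for OSE-BPR, 2 and 4 for Ad-BPR, 4 and 2 for Pax8-BPR, and 3 and 3 for Ovgp1-BPR. The normal ovary and oviduct samples are 3 of each, from the same 3 wild-type animals labelled C57Bl/6. The tumours from which allografts came and the strain of their hosts are not stated in the labels, so allografts of 1 model may share a source, and p-values measure the spread between these libraries only.

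TRIM proteins are ubiquitin ligases built from a RING domain, B-boxes and a coiled coil, and many carry a C-terminal B30.2 domain that recognises a target. Trim5, Trim12a and Trim12c are the mouse relatives of TRIM5, known as a restriction factor against retroviral capsids and as an activator of the TAK1 kinase complex. Trim30a is known as a negative regulator of NF-kB signalling in macrophages, and Trim30b and Trim30d are its close relatives. Trim34a is related to human TRIM34, and Trim6 is known for unanchored ubiquitin chains that assist interferon signalling. Many genes of this cluster are induced by interferon in leukocytes and other cells.

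In GENCODE M21 (GRCm38), Trim12a (ENSMUSG00000066258.13) lies at chr7:104299894-104315466 on the minus strand. Going along the chromosome the cluster runs Trim6 (chr7:104218793-104235152, plus), Trim34a (chr7:104244457-104262234, plus), Trim5 (chr7:104263386-104288094, minus), Trim12a, Trim34b (chr7:104329471-104336909, plus), Trim12c (chr7:104338754-104353362, minus), Trim30b (chr7:104355382-104369884, minus), Trim30c, Trim30a (chr7:104409025-104465193, minus) and Trim30d (chr7:104470014-104507849, minus). Trim34b, a near-copy of Trim34a, is not one of the 8 but is described because reads of the pair are hard to separate. The coding sequences of Trim34a and Trim34b were identical at 98.8% of aligned bases. Trim12a matched Trim12c at 96.4% and Trim5 at 97.1% over its 891 coding bases, which is shorter than the 1491 of both relatives. Trim30a and Trim30d matched at 90.2%. Trim6 matched the other genes at only 62.6% to 67.2%.

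The 60-base coding stretches below, from GENCODE M21 transcripts on GRCm38, show bases at which the genes of each pair can be told apart. Each is the window where the pair differs most within 1 exon, written 5′ to 3′ on the gene's own strand, with the differing bases in capitals. The first pair is Trim12a (chr7:104307154-104307213, minus) and Trim12c (chr7:104348170-104348229, minus), with 6 differences.
Trim12a coding window: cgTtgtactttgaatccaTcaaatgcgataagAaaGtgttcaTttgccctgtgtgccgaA
Trim12c coding window: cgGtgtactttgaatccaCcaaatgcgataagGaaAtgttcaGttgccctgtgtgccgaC
The second pair is Trim34a (chr7:104247823-104247882, plus) and Trim34b (chr7:104329640-104329699, plus), with 4 differences.
Trim34a coding window: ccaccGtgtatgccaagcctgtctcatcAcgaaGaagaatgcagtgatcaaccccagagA
Trim34b coding window: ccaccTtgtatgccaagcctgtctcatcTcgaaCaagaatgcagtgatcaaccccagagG
The third pair is Trim30a (chr7:104429289-104429348, minus) and Trim30d (chr7:104483500-104483559, minus), with 12 differences.
Trim30a coding window: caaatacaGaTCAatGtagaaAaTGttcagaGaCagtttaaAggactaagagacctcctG
Trim30d coding window: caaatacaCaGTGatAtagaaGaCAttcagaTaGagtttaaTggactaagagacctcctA

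The promoters of the cluster share a motif of the interferon-stimulated response element kind, which interferon regulatory factors are known to bind. RefSeq promoter sequences (build GRCm38.p6, from 250 bases before to 50 after each gene start) were searched on both strands for GAAANNGAAA, which reads TTTCNNTTTC on the other strand. It was present in 6 of the 8 genes and absent from those of Trim6, Trim30b and Trim34b in this window. Of all 32851 promoters of this length, 1131 (3.44%) held it. A second motif, TTCNNNGAA, the core of the STAT site, was in none of the 8 and in 8.3% of all promoters. The windows below are 60 bases of the gene's own strand, with the match in capitals. They are Trim34a (chr7:104244427-104244486, plus), Trim5 (chr7:104288136-104288195, minus), Trim12a (chr7:104315466-104315525, minus), Trim12c (chr7:104353359-104353418, minus), Trim30a (chr7:104465210-104465269, minus) and Trim30d (chr7:104507871-104507930, minus).
Trim34a promoter window: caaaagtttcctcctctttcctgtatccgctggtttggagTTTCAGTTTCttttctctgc
Trim5 promoter window: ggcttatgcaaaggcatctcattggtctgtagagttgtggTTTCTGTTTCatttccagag
Trim12a promoter window: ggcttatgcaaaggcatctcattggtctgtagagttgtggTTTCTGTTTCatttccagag
Trim12c promoter window: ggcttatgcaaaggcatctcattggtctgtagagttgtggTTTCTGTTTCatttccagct
Trim30a promoter window: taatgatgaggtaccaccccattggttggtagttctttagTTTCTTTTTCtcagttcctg
Trim30d promoter window: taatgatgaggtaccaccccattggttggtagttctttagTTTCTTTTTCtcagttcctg
The Trim5 and Trim12a windows matched at 60 of 60 bases, and Trim12c matched both at 58 of 60. Trim30a and Trim30d also matched at 60 of 60. Trim12a and Trim12c therefore carried almost the same promoter letters here although their levels across the groups differed, as given below. These matches describe the reference sequence alone and carry no information on binding.

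The 32 libraries held 13987123 to 20514825 expected counts, with a median of 17426862. Levels are given as CPM, counts scaled to the library total with TMM factors, and compared between genes only as TPM, which also divides by gene length. Trp53 stood at 8.4 to 43.0 CPM in the 20 OSE-BPR, Ad-BPR and Pax8-BPR tumours, at 101 to 157 CPM in the 6 Ovgp1-BPR tumours and at 83.4 to 120 CPM in normal tissue. Brca1 was at 17.1 to 70.6 CPM in tumours and 2.03 to 22.5 CPM in normal tissue, a gene-level value that does not isolate the deleted exons. Normal oviduct carried 4280 to 10600 CPM of 4 oviduct secretory markers, Ovgp1 and Pax8 among them, and normal ovary 4410 to 5200 CPM of 7 granulosa and luteal markers. In bulk tissue, fewer cells of a type and less RNA per cell cannot be told apart.

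At several near-copy gene pairs the libraries split in a way that does not follow the strain labels. Hbb-bt, an adult beta-globin gene 487 kb from Trim12a, supplied 11.1% to 17.2% of the Hbb-bs and Hbb-bt expected counts in the 18 oviduct-origin tumours and 3.73% to 5.17% in the 14 OSE-BPR and normal libraries. Hba-a2, an alpha-globin gene on chromosome 11, supplied 47.7% to 63.0% of the Hba-a1 and Hba-a2 counts in the former and 1.82% to 13.0% in the latter. The pairs were set beside each other after the data were seen, so these shares are a description without a test. The mean Hbb-bt share was 13.4% in oviduct-origin GEMM tumours and 4.17% in normal oviduct, against 4.39% in OSE-BPR GEMM tumours and 4.46% in normal ovary. The mean Hba-a2 share was 59.5% and 8.11% in the first pair of groups and 10.5% and 11.5% in the second. The values of normal tissue labelled C57Bl/6 overlapped those of the FVB-labelled tumours at both globin pairs and did not overlap those of the tumours labelled C57Bl/6. Genotypes were not measured, so whether strain background accounts for these splits was not tested. Below, the comparisons of oviduct-origin GEMM tumours with normal oviduct, and of oviduct-origin with OSE-BPR tumours, set libraries on opposite sides of this split. The comparison of OSE-BPR GEMM tumours with normal ovary does not, but its strain labels differ, FVB against C57Bl/6. Strain labels also differ between oviduct-origin and OSE-BPR tumours. Where the labels differ, strain cannot be told apart from the difference compared.

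Trim12a was at or near 0 in every OSE-BPR and normal library and present in every oviduct-origin tumour. The OSE-BPR GEMM tumours had 0, 0.0549 and 0.123 CPM, and all 5 OSE-BPR allografts had 0. Normal ovary had 0.0853, 0 and 0 CPM, and normal oviduct had 0, 0.0478 and 0.0919 CPM. The 14 libraries without the gene thus held at most 2.01 expected counts each. The Ad-BPR GEMM tumours had 14.5 and 12.0 CPM, and the Ad-BPR allografts had 14.3, 15.0, 34.9 and 20.0 CPM. The Pax8-BPR GEMM tumours had 21.7, 24.2, 20.8 and 24.0 CPM, and the Pax8-BPR allografts had 12.1 and 22.6 CPM. These 12 tumours overlapped one another, with Ad-BPR allograft 3 alone above 25 CPM. The Ovgp1-BPR GEMM tumours had 44.7, 38.9 and 35.0 CPM, and the Ovgp1-BPR allografts had 56.2, 48.5 and 43.3 CPM. Every Ovgp1-BPR tumour was above every Ad-BPR and Pax8-BPR tumour, the nearest values being 35.0 and 34.9 CPM.

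Ordered by mean CPM, Trim12a ran from Ovgp1-BPR allografts (49.3 ± 6.47, SD, n = 3) through Ovgp1-BPR GEMM (39.5 ± 4.87, n = 3), Pax8-BPR GEMM (22.7 ± 1.66, n = 4), Ad-BPR allografts (21.1 ± 9.60, n = 4), Pax8-BPR allografts (17.3 ± 7.43, n = 2) and Ad-BPR GEMM (13.3 ± 1.80, n = 2) to the libraries near 0. Adjacent groups overlapped in this order except at the step from Ovgp1-BPR GEMM to Pax8-BPR GEMM and at the step down to the groups near 0. Between the allografts, where all 5 OSE-BPR libraries were at 0, the mean of 29.2 CPM over the 3 oviduct-origin groups was at least 162-fold higher than the level of 3 counts per library. No fold is given against the remaining groups, which held too few counts. Per length, Trim12a had the highest median of the 8 genes in the 18 oviduct-origin tumours at 30.2 TPM, ahead of Trim34a (12.7 TPM), Trim12c (12.5 TPM), Trim30a (10.1 TPM), Trim6 (7.96 TPM), Trim30d (4.81 TPM), Trim5 (3.27 TPM) and Trim30b (0.52 TPM). In the 8 OSE-BPR tumours the highest median was that of Trim12c at 25.7 TPM.

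**Figure D1:**
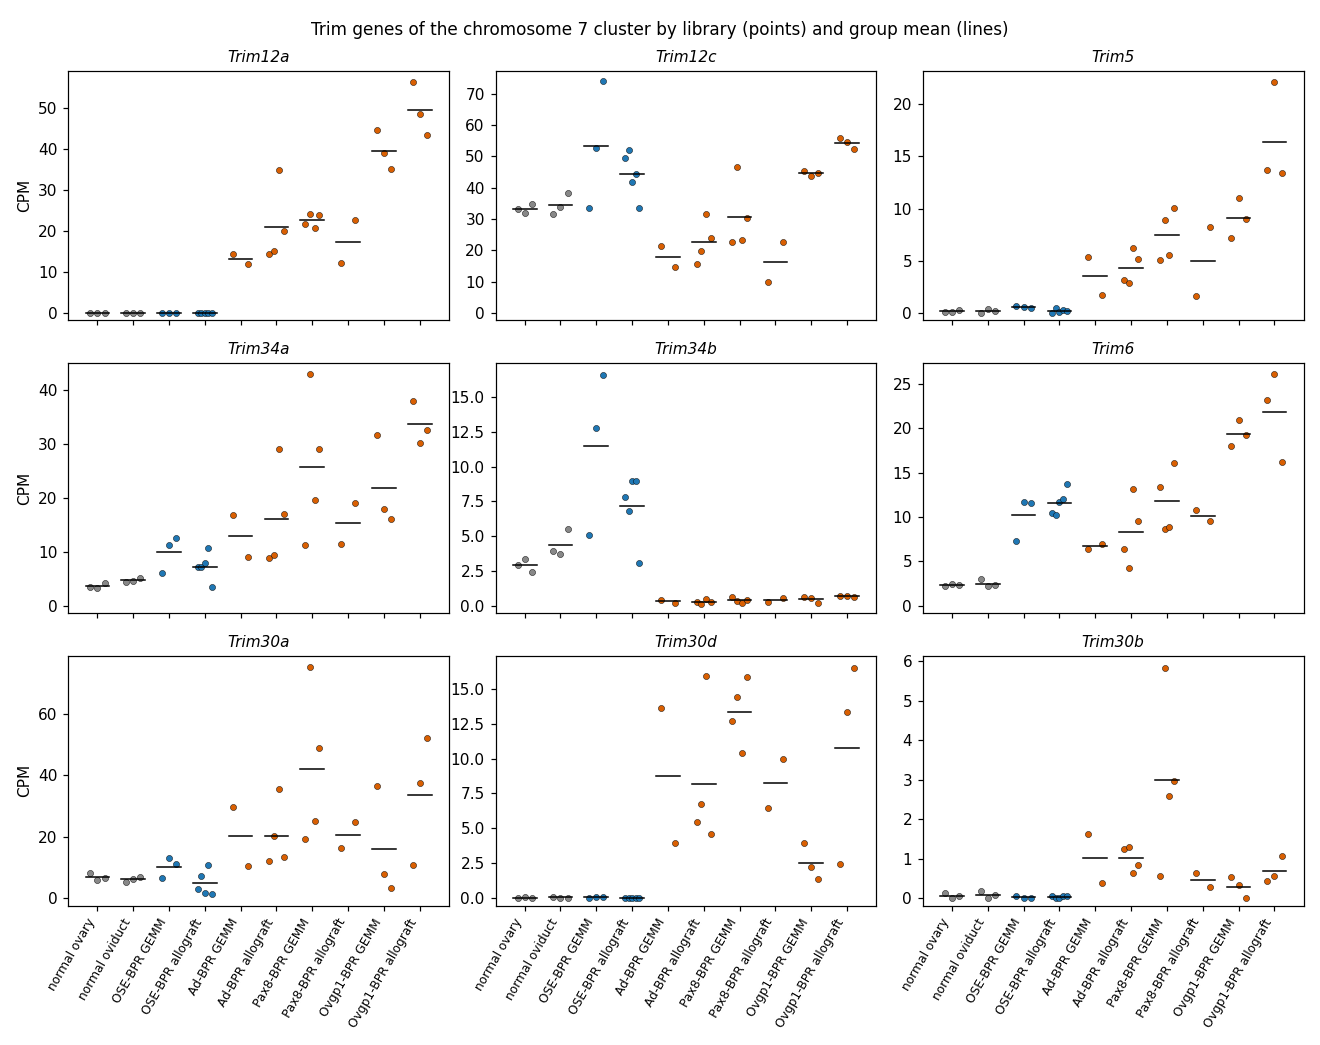
Level of the 8 genes and Trim34b in CPM on linear axes from 0, with 1 point per library and a line at each group mean (grey normal tissue, blue OSE-BPR, orange oviduct-origin models). Trim12a, Trim5, Trim30d and Trim30b sit near 0 in the OSE-BPR and normal groups, Trim34b is near 0 in the oviduct-origin groups, Trim12c is at 9.81 CPM or more in all 32 libraries, and Trim6 is lowest in normal tissue.

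Counted over the comparisons, the neighbours did not move as one block with Trim12a. A gene is called where its Benjamini-Hochberg adjusted p, over all genes tested by edgeR's quasi-likelihood test, is under 0.05. In oviduct-origin GEMM tumours against normal oviduct, 6 of 7 neighbours were called, all higher, against 35.7% of the 20887 genes tested (14.8% higher). Trim5, Trim30b and Trim30d were among them, although the normal libraries alone held too few counts to test them. They were tested through tumours where they are high, so a call there could hardly be other than higher. In OSE-BPR GEMM tumours against normal ovary, 2 of 7 were called, both higher, against 23.2% of genes (11.6% higher). When only those groups were fitted, 4 neighbours had enough counts to be tested there and 2 were called, so Trim5, Trim30b and Trim30d were tested there only through their counts in other libraries, and 2 of 7 is not to be set beside 6 of 7. In oviduct-origin against OSE-BPR GEMM tumours, 4 of 7 were called, 3 higher and 1 lower, against 26.0% of the 20000 genes tested in the tumour fit (11.1% higher, 14.9% lower). In the allografts of the same models, 6 of 7 were called, 5 higher and 1 lower, against 37.8% of genes (17.4% higher, 20.4% lower). Between GEMM origins the 3 higher calls were Trim5, Trim30b and Trim30d, which were also among the higher calls between allografts. The OSE-BPR libraries held few of their counts, so these calls too could hardly be other than higher. Counts with so few genes are a description, and comparisons that share tumours are not independent of each other.

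**Figure D2:**
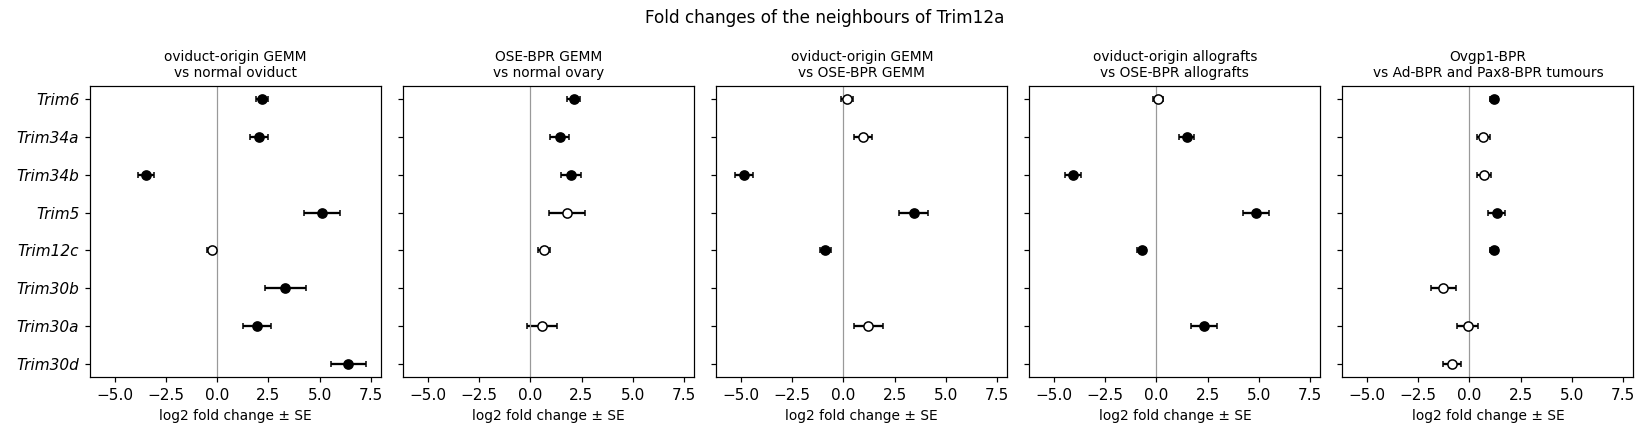
Fitted log2 fold change (horizontal) of the 7 neighbours and Trim34b in 5 comparisons, with bars of 1 standard error and filled points for genes called at adjusted p under 0.05. Trim30b and Trim30d have no point in comparisons with OSE-BPR groups, which held at most 3.45 expected counts of either gene per group. Their points against oviduct rest on 5 and 4.11 expected counts in oviduct. Trim5 lies to the right of 0 in all 5 panels, and Trim34b and Trim12c change side between panels.

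Trim5, the gene next to Trim12a and the one named for the TRIM5 family, came closest to its pattern together with Trim30d. The OSE-BPR GEMM tumours had 0.698, 0.581 and 0.445 CPM of Trim5, and the allografts 0, 0.516, 0.133, 0.335 and 0.199 CPM. Normal ovary had 0.142, 0.0589 and 0.289 CPM, and normal oviduct 0, 0.342 and 0.149 CPM. The Ad-BPR GEMM tumours had 5.33 and 1.77 CPM, and the Ad-BPR allografts 3.16, 2.83, 6.23 and 5.21 CPM. All of these oviduct-origin values were above all of the former. The Pax8-BPR GEMM tumours had 5.08, 8.95, 5.60 and 10.1 CPM, and the Pax8-BPR allografts 1.65 and 8.27 CPM. The Ovgp1-BPR GEMM tumours had 7.17, 11.0 and 9.02 CPM, and the Ovgp1-BPR allografts 13.7, 22.1 and 13.4 CPM. The 18 oviduct-origin tumours (1.65 to 22.1 CPM) did not overlap the other 14 libraries (0 to 0.698 CPM). By edgeR, Trim5 was higher in oviduct-origin GEMM tumours than in normal oviduct (log2 fold change 5.11 ± 0.856 SE, 34.6-fold, adjusted p = 5.8e-05), on at most 6.57 expected counts per oviduct library. It was also higher than in OSE-BPR GEMM tumours (3.43 ± 0.699, 10.8-fold, adjusted p = 0.0014), and between allografts (4.86 ± 0.612, 29.0-fold, adjusted p = 7.5e-06). The OSE-BPR and normal libraries held few Trim5 counts, so these calls could hardly be other than higher. In OSE-BPR GEMM tumours against normal ovary it gave 1.80 ± 0.865 (adjusted p = 0.14).

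Trim12c, whose coding sequence is nearly that of Trim12a, was expressed in every library. It took the opposite side in the comparisons of oviduct-origin with OSE-BPR tumours. The OSE-BPR GEMM tumours had 33.5, 52.6 and 74.1 CPM, and the OSE-BPR allografts 49.6, 52.0, 41.9, 44.4 and 33.6 CPM. Normal ovary had 33.2, 31.9 and 34.8 CPM, and normal oviduct 31.5, 33.8 and 38.3 CPM. The Ad-BPR GEMM tumours had 21.4 and 14.6 CPM, and the Ad-BPR allografts 15.5, 19.8, 31.6 and 24.1 CPM. All but 1 of these Ad-BPR values were below every OSE-BPR and normal library. The Pax8-BPR GEMM tumours had 22.6, 46.5, 23.4 and 30.3 CPM, and the Pax8-BPR allografts 9.81 and 22.7 CPM. The Ovgp1-BPR GEMM tumours had 45.2, 43.8 and 44.7 CPM, and the Ovgp1-BPR allografts 55.9, 54.6 and 52.3 CPM. Ovgp1-BPR tumours thus lay within the range of the OSE-BPR tumours, while most Ad-BPR and Pax8-BPR tumours lay below it. Trim12c was lower in oviduct-origin than in OSE-BPR GEMM tumours (log2 fold change -0.88 ± 0.262, adjusted p = 0.018) and lower between allografts (-0.71 ± 0.226, adjusted p = 0.018). The first call was lost without OSE-BPR GEMM tumour 2 (adjusted p = 0.055) or 3 (-0.57, adjusted p = 0.21) or without Ad-BPR GEMM tumour 2 (0.066), and the second without Pax8-BPR allograft 1 (-0.48, adjusted p = 0.11). Against normal tissue edgeR called neither direction, with -0.25 ± 0.247 (adjusted p = 0.46) in oviduct-origin GEMM tumours and 0.68 ± 0.304 (adjusted p = 0.11) in OSE-BPR GEMM tumours. By limma on log2(TPM + 1), Trim12c was called higher in OSE-BPR GEMM tumours than in ovary (0.82 ± 0.302, adjusted p = 0.046).

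The share of the pair that was assigned to Trim12a split the libraries without overlap. Trim12a was chosen for that pattern, so its share had to split them and is given as a description. Trim12a supplied 34.2% to 55.2% (mean 46.5% ± 4.68, SD, n = 18) of the expected counts of Trim12a and Trim12c in oviduct-origin tumours, and 0% to 0.256% in the other 14 libraries. The same form was seen at the other near-copies below. These pairs were chosen after the data were seen, so their shares are a description without a test too. Trim30d supplied 9.78% to 39.6% of Trim30a and Trim30d counts in oviduct-origin tumours and 0% to 2.28% elsewhere. Trim34b supplied 0.786% to 5.04% of Trim34a and Trim34b counts in oviduct-origin tumours and 36.6% to 57.0% elsewhere. In all 3 pairs, normal tissue labelled C57Bl/6 sat with the FVB-labelled tumours, as it did at the globin genes.

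**Figure D3:**
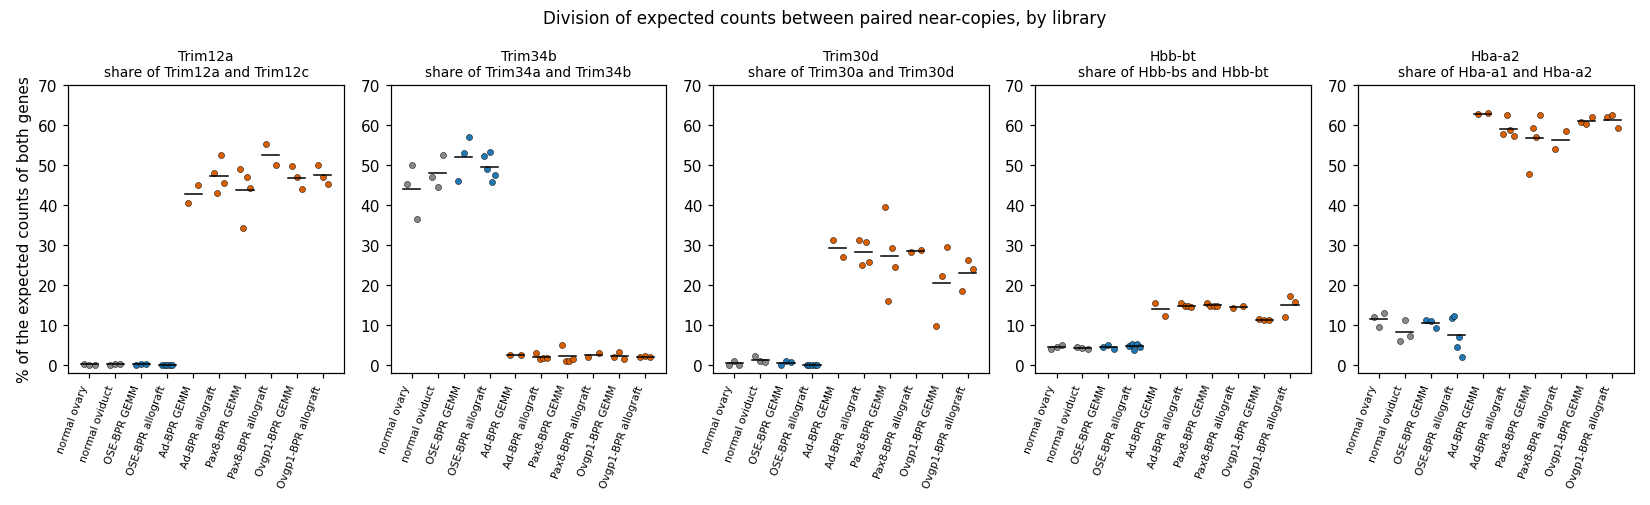
Percent of the expected counts of a gene pair assigned to the gene named first, with 1 point per library and a line at each group mean (grey normal tissue, blue OSE-BPR, orange oviduct-origin models). In each of the 5 pairs the 18 oviduct-origin tumours form a cluster apart from the 14 OSE-BPR and normal libraries. Trim12a was chosen for this split, and the pairs were chosen after the data were seen.

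Adding the 3 TRIM5 relatives before the fit removed most of the contrast between tumour origins. The sum of Trim12a, Trim12c and Trim5 was 33.8 to 74.6 CPM in OSE-BPR tumours (median 47.2), 23.5 to 79.6 CPM in Ad-BPR and Pax8-BPR tumours (median 49.3), 88.7 to 126 CPM in Ovgp1-BPR tumours (median 103) and 31.5 to 38.5 CPM in normal tissue. OSE-BPR tumours overlapped Ad-BPR and Pax8-BPR tumours over most of the range, and Ovgp1-BPR tumours stood above both. Because the sum holds Trim12a, it is given without a test. The fitted log2 fold change of the sum was 0.11 ± 0.265 in oviduct-origin against OSE-BPR GEMM tumours and 0.44 ± 0.224 between allografts. It was 0.78 ± 0.248 in oviduct-origin GEMM tumours against oviduct and 0.71 ± 0.289 in OSE-BPR GEMM tumours against ovary.

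**Figure D4:**
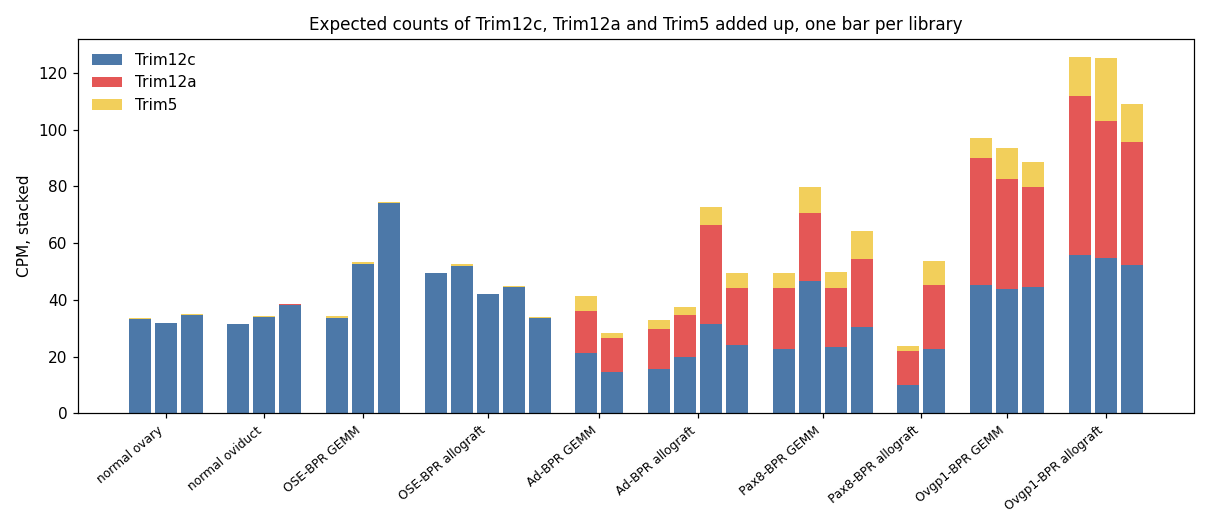
Stacked CPM of Trim12c, Trim12a and Trim5 in each of the 32 libraries, from 0. The parts differ between OSE-BPR and oviduct-origin libraries while the totals of OSE-BPR, Ad-BPR and Pax8-BPR tumours overlap, and the 6 Ovgp1-BPR totals are the tallest at 88.7 to 126 CPM.

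Trim34a, a family member known to be interferon-inducible, was higher in tumours than in normal tissue in both arms. Normal ovary had 3.53, 3.34 and 4.20 CPM, and normal oviduct 4.38, 4.62 and 5.04 CPM. The OSE-BPR GEMM tumours had 6.02, 11.3 and 12.5 CPM, and the OSE-BPR allografts 7.18, 7.13, 7.85, 10.7 and 3.39 CPM. OSE-BPR allograft 5 was the only tumour in the range of normal tissue. Oviduct-origin GEMM tumours ranged from 9.00 to 42.9 CPM (median 17.9, n = 9) and oviduct-origin allografts from 8.88 to 38.0 CPM (median 19.0, n = 9), overlapping the upper OSE-BPR values. By edgeR, Trim34a was higher in oviduct-origin GEMM tumours than in oviduct (2.04 ± 0.431, 4.12-fold, adjusted p = 0.00068). It was higher in OSE-BPR GEMM tumours than in ovary (1.43 ± 0.473, adjusted p = 0.03), a call lost when any of 5 of the 6 libraries was left out (adjusted p 0.056 to 0.1; it held without OSE-BPR GEMM tumour 1). Between allografts it was higher in the oviduct-origin group (1.48 ± 0.366, adjusted p = 0.0036), while between GEMM tumours it gave 0.96 ± 0.435 (adjusted p = 0.11).

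Trim34b, its near-copy beside Trim12a, went the other way. It stood at 0.131 to 0.699 CPM in the 18 oviduct-origin tumours (median 0.405), at 3.06 to 16.6 CPM in the 8 OSE-BPR tumours (median 8.40) and at 2.42 to 5.55 CPM in normal tissue (median 3.52). No oviduct-origin tumour reached the lowest of the other libraries. Trim34b was lower in oviduct-origin GEMM tumours than in oviduct (-3.45 ± 0.387, adjusted p = 2.5e-07), lower than in OSE-BPR GEMM tumours (-4.84 ± 0.435, adjusted p = 1.4e-07) and lower between allografts (-4.05 ± 0.398, adjusted p = 3.3e-07). Oviduct-origin tumours held few Trim34b counts, so these calls could hardly be other than lower. The pair with Trim34a was also chosen after the data were seen. In OSE-BPR GEMM tumours Trim34b was higher than in ovary (1.98 ± 0.501, adjusted p = 0.006). The difference between the oviduct and the ovary tumour effects was -5.44 ± 0.662 (adjusted p = 5.5e-06), a contrast chosen after the data were seen. Only its oviduct arm crosses the library split described above, so a tumour effect cannot be told apart from that split. In this contrast 0 of the 7 neighbours and 13.8% of all genes were called (5.78% higher, 8.03% lower). By edgeR, 4 of the 7 neighbours were under an unadjusted p of 0.05 there, Trim5 among them (3.31 ± 1.17, adjusted p = 0.061). DESeq2 called Trim5 (adjusted p = 0.016) and Trim30d (adjusted p = 0.036) higher there, and so did limma on log2(TPM + 1) (adjusted p = 0.0053 and 0.013). With Trim34a and Trim34b added before the fit, also chosen after seeing the data, the sum was higher than normal in both arms (1.12 ± 0.410, adjusted p = 0.0345, from oviduct, and 1.70 ± 0.479, adjusted p = 0.0122, from ovary). The sum gave -0.12 ± 0.413 (adjusted p = 0.871) between GEMM tumours and 0.52 ± 0.356 (adjusted p = 0.261) between allografts.

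Trim6, at the edge of the cluster and without a near-copy, separated tumours from normal tissue, and of the oviduct-origin models only Ovgp1-BPR stood apart from OSE-BPR. Normal ovary had 2.22, 2.46 and 2.36 CPM, and normal oviduct 3.00, 2.18 and 2.31 CPM. The OSE-BPR GEMM tumours had 7.24, 11.7 and 11.6 CPM, and the allografts 10.4, 10.2, 11.7, 12.0 and 13.7 CPM. Oviduct-origin GEMM tumours ranged from 6.35 to 20.9 CPM (median 13.4, n = 9) and oviduct-origin allografts from 4.20 to 26.1 CPM (median 10.8, n = 9). Every tumour was above every normal sample, and the OSE-BPR values lay inside the oviduct-origin range. Every Ovgp1-BPR tumour (16.2 to 26.1 CPM) was above every OSE-BPR tumour (7.24 to 13.7 CPM). Ad-BPR tumours (4.20 to 13.1 CPM) and Pax8-BPR tumours (8.60 to 16.1 CPM) overlapped the OSE-BPR tumours. Trim6 was 4.59-fold higher in oviduct-origin GEMM tumours than in oviduct (log2 2.20 ± 0.302, adjusted p = 4.7e-06) and higher in OSE-BPR GEMM tumours than in ovary (2.11 ± 0.334, adjusted p = 9.8e-05). Between origins it gave 0.17 ± 0.283 in GEMM tumours (adjusted p = 0.69) and 0.08 ± 0.236 in allografts (adjusted p = 0.83), values that average the oviduct-origin models.

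The Trim30 genes, named for the regulator Trim30a, divided into 2 that were nearly absent outside oviduct-origin tumours and 1 that was present everywhere. Trim30d was at 0, 0.115 and 0.0824 CPM in OSE-BPR GEMM tumours, at 0 in all 5 OSE-BPR allografts and at most 0.123 CPM in normal tissue. The Ad-BPR GEMM tumours had 13.6 and 3.93 CPM, and the Ad-BPR allografts 5.49, 6.77, 15.9 and 4.61 CPM. The Pax8-BPR GEMM tumours had 12.7, 14.4, 10.4 and 15.8 CPM, and the Pax8-BPR allografts 6.46 and 10.0 CPM. These values were far above those of the OSE-BPR and normal libraries, as for Trim12a. The Ovgp1-BPR GEMM tumours had 3.97, 2.26 and 1.40 CPM, and the Ovgp1-BPR allografts 2.43, 13.3 and 16.5 CPM. Here the order of models was not that of Trim12a, since the Ovgp1-BPR GEMM tumours were near the bottom of the oviduct-origin range. Trim30d was higher in oviduct-origin GEMM tumours than in oviduct (6.40 ± 0.869, adjusted p = 9.1e-06, on 4.11 expected counts over the 3 oviduct libraries). Against OSE-BPR GEMM tumours it was called higher (adjusted p = 9.4e-05), with too few counts there for a fold. Between allografts it was called higher too (adjusted p = 6.5e-07), with a mean of 9.05 CPM that was at least 50.1-fold higher than the level of 3 counts per library. Trim30d entered these fits through the tumours where it is high, so its calls could hardly be other than higher.

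Trim30a was at 6.50, 13.2 and 11.3 CPM in OSE-BPR GEMM tumours and at 2.98, 7.17, 1.83, 10.7 and 1.49 CPM in OSE-BPR allografts. Normal ovary had 8.11, 5.94 and 6.63 CPM, and normal oviduct 5.28, 6.39 and 6.83 CPM. The oviduct-origin GEMM tumours ranged from 3.36 to 75.2 CPM (median 25.3, n = 9) and the allografts from 10.8 to 52.1 CPM (median 20.3, n = 9). The lowest of these GEMM tumours, Ovgp1-BPR 3 and 2 at 3.36 and 7.89 CPM and Ad-BPR 2 at 10.6 CPM, lay within the OSE-BPR range, and the highest was Pax8-BPR 2. Trim30a was higher in oviduct-origin GEMM tumours than in oviduct (1.95 ± 0.689, 3.86-fold, adjusted p = 0.029), a call lost without Ad-BPR GEMM tumour 1, Ovgp1-BPR GEMM tumour 1 or any 1 of the 3 oviduct samples (adjusted p 0.06 to 0.098). It was higher between allografts (2.32 ± 0.619, 4.99-fold, adjusted p = 0.0061). Against OSE-BPR GEMM tumours it gave 1.21 ± 0.713 (adjusted p = 0.22), and OSE-BPR GEMM tumours against ovary gave 0.58 ± 0.747 (adjusted p = 0.61). Adding Trim30a and Trim30d, chosen after seeing the data, gave 2.35 ± 0.679 (adjusted p = 0.00873) against oviduct, 2.78 ± 0.609 (adjusted p = 0.00142) between allografts and 1.58 ± 0.701 (adjusted p = 0.101) between GEMM tumours.

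Trim30b stayed low throughout. It was at 0 to 0.067 CPM in OSE-BPR tumours, 0 to 0.18 CPM in normal tissue and 0 to 5.84 CPM in oviduct-origin tumours (median 0.645). The highest values, 5.84, 2.96 and 2.60 CPM, were all Pax8-BPR GEMM tumours, and Ovgp1-BPR GEMM tumour 3 was at 0. The groups therefore overlapped at 0. Trim30b was called higher in oviduct-origin GEMM tumours than in oviduct (3.31 ± 0.998, adjusted p = 0.012, or 0.064 without oviduct sample 2), on 5 expected counts over the oviduct libraries. It was also called higher than in OSE-BPR GEMM tumours (adjusted p = 0.0038) and between allografts (adjusted p = 0.0013), where the OSE-BPR groups held too few counts for a fold. Trim30b entered these fits through the tumours where it is high, so its calls could hardly be other than higher. Trim30c and the pseudogene Trim30e-ps1 reached at most 0.386 and 0.165 CPM in any library.

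Between normal oviduct and normal ovary no single neighbour was called. Of 4 neighbours with enough counts, 0 were called, against 53.0% of the 17334 genes tested in the 6 normal libraries. By edgeR 0 were under an unadjusted p of 0.05 as well, and DESeq2 called 0. The log2 differences of oviduct minus ovary were 0.17 for Trim6, 0.43 for Trim34a (adjusted p = 0.098), 0.14 for Trim12c and -0.07 for Trim30a. Trim34a was higher in the oviduct than in the ovary of each of the 3 animals, and the sum of Trim34a and Trim34b, chosen after seeing the data, was called higher in the oviduct (0.55 ± 0.162, adjusted p = 0.0263).

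Within the oviduct-origin tumours, 3 of the 7 neighbours were called by edgeR in the Ovgp1-BPR model against Ad-BPR and Pax8-BPR, all higher. The share called was close to that of all genes, of which 42.4% were called (22.7% higher, 19.7% lower). They were Trim6 (1.19 ± 0.207, 2.28-fold, adjusted p = 0.00015), Trim12c (1.21 ± 0.203, adjusted p = 0.0001) and Trim5 (1.32 ± 0.408, 2.49-fold, adjusted p = 0.014). Trim34a gave 0.68 (adjusted p = 0.077), Trim30a -0.08, Trim30d -0.85 (adjusted p = 0.13) and Trim30b -1.28 (adjusted p = 0.096). By edgeR none of the Trim30 genes was called, and DESeq2 called Trim30b lower (-1.33 ± 0.582, adjusted p = 0.049). Trim34a was called higher by limma on log2(TPM + 1) (0.91 ± 0.297, adjusted p = 0.017) and on log2(TPM + 0.1) (0.97 ± 0.322, adjusted p = 0.018). In this comparison 5 of 5 epithelial markers were lower (median log2 fold change -2.91), and 3 of 12 macrophage markers were lower, and the part of this in the result was not tested. Allografts against GEMM tumours of the oviduct-origin models gave 0 of 7 neighbours called by edgeR or by DESeq2, and 0 under an unadjusted p of 0.05. Over all 20000 genes edgeR called 0.0%, with 1169 genes at an unadjusted p under 0.05, and DESeq2 called 41.

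Other genes of the interferon pathway moved in the same comparisons. Of 27 interferon response genes, 16 were higher and 1 lower in oviduct-origin GEMM tumours against oviduct (median log2 fold change 1.54, against -0.043 over all genes). The largest were Cxcl10 (6.95 ± 1.11), a chemokine, and Oasl1 (3.95 ± 0.506), of the oligoadenylate synthetase family. In OSE-BPR GEMM tumours against ovary 9 were higher and 1 lower (median 1.13), with Oasl1 (3.91 ± 0.554) and Rsad2, an antiviral enzyme (3.08 ± 0.598), among them. Both arms thus included more higher than lower members. In oviduct-origin against OSE-BPR GEMM tumours 15 were higher and 0 lower (median 1.55), with Oas3 (4.85 ± 1.28) and Zbp1 (4.42 ± 1.16), a sensor of nucleic acid, leading. Between allografts 24 were higher and 0 lower (median 2.40), with Oas3 (5.20 ± 1.03), Zbp1 (4.24 ± 0.907) and Mx1 (4.02 ± 0.763) leading. In normal oviduct against ovary 17 of 25 tested were higher and 1 lower, although 0 of the 4 Trim neighbours tested were called there. Of all genes tested, 14.8% were higher and 20.9% lower in oviduct-origin GEMM tumours against oviduct, and 11.6% each in OSE-BPR GEMM tumours against ovary. These shares were 11.1% and 14.9% between GEMM origins, 17.4% and 20.4% between allografts, and 28.5% and 24.5% in oviduct against ovary.

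Leukocyte markers were higher in some of these comparisons and lower in others. Of 12 macrophage markers, 8 were higher and 0 lower in oviduct-origin GEMM tumours against oviduct, and 11 were higher than in OSE-BPR GEMM tumours, with 0 lower. Between allografts 10 were higher. Of all genes, 14.8% were called higher against oviduct, 11.1% between GEMM origins and 17.4% between allografts. Against ovary, 0 macrophage markers were higher and 1 lower in OSE-BPR GEMM tumours, where 11.6% of all genes were called lower. The summed level of the macrophage markers was 236 to 3430 CPM in oviduct-origin GEMM tumours, 135 to 534 CPM in OSE-BPR GEMM tumours, 334 to 507 CPM in oviduct and 363 to 618 CPM in ovary, and no marker was at 0 throughout a group. Of 6 B cell markers, 5 were higher than in OSE-BPR GEMM tumours, with sums of up to 2930 CPM in Pax8-BPR GEMM tumours against at most 5.97 CPM in OSE-BPR GEMM tumours. Against oviduct edgeR called 0 of 6 B cell markers and 0 of 9 T and NK cell markers, with 1 of each list under an unadjusted p of 0.05. Against ovary, 2 of 6 B cell and 3 of 9 T and NK cell markers were lower in OSE-BPR GEMM tumours and 0 higher, while 9 interferon genes were higher. The part of leukocyte content in the differences of Trim30a, Trim30b, Trim30d, Trim34a and Trim5 was not tested across groups.

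Calls among genes for partners of TRIM5-type proteins varied between comparisons. Of 10 such genes, 5 were higher and 0 lower in oviduct-origin GEMM tumours against oviduct, where 35.7% of all genes were called. Tab3 (1.02 ± 0.271), Tab2 (0.90 ± 0.282), the TAK1 kinase gene Map3k7 (0.77 ± 0.138) and Tab1 (0.51 ± 0.194) had the largest values. In OSE-BPR GEMM tumours against ovary 1 was higher, Tab3 (0.87 ± 0.311), and 0 lower, against 23.2% of all genes called. In normal oviduct against normal ovary 0 of 10 were higher and 4 lower, where 53.0% of all genes were called. In Ovgp1-BPR against Ad-BPR and Pax8-BPR tumours 1 was higher and 1 lower, where 42.4% of all genes were called. Between origins edgeR called 0 of 10 in GEMM tumours (26.0% of all genes), with 1 under an unadjusted p of 0.05, and 0 of 10 in allografts (37.8% of all genes), with 0 under that p. Of 11 tested Trim genes linked to innate immunity elsewhere in the genome, 0 were called against oviduct (2 at an unadjusted p under 0.05), 2 were lower than in OSE-BPR GEMM tumours (Trim32, -0.87 ± 0.211, and Trim8, -0.73 ± 0.260) and 0 higher. Of 5 tested further Trim genes of the wider chromosome 7 region, 3 were lower than in OSE-BPR GEMM tumours, namely Trim34b, Trim66 (-2.31 ± 0.577) and Trim68 (-0.74 ± 0.269), and 0 were higher. Trim66 and Trim68 were both higher in OSE-BPR GEMM tumours than in ovary (3.00 ± 0.774 and 1.00 ± 0.313).

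From tumour to tumour inside the groups, Trim30a and Trim34a varied with the interferon list. Each gene's log2 CPM was taken as its deviation from its group mean over the 26 tumours and set against the mean of the interferon list or of the macrophage list, 16 relations in all, with permutations of libraries within groups. For Trim12a, which was chosen for its levels, r is given as a description, and no difference between correlations was tested. Trim30a gave Pearson r = 0.738 and Spearman rho = 0.726 with the interferon list (n = 26, permutation p = 0.00087 and 0.00101, adjusted p = 0.0139 and 0.0162). Within models its r was 0.533 in OSE-BPR, 0.958 in Ad-BPR, 0.794 in Pax8-BPR and 0.801 in Ovgp1-BPR tumours. Trim34a gave r = 0.622 and rho = 0.601 (permutation p = 0.00626 and 0.0114, adjusted p = 0.0334 and 0.0458), with 0.309, 0.814, 0.674 and 0.868 within the models in the same order. Without the 2 tumours farthest from the median of the list, Trim30a kept r = 0.694 (adjusted permutation p = 0.0455) and Trim34a gave 0.586 (adjusted permutation p = 0.0764), so the call for Trim34a rests on them. In the 12 GEMM tumours alone r was 0.82 for Trim30a and 0.536 for Trim34a, and neither passed the adjusted threshold (adjusted permutation p = 0.252 and 0.345). Trim12a gave r = 0.325 and rho = 0.329. Trim12c gave 0.309, Trim5 0.206 and Trim6 0.0606, none past the threshold, and Trim30d 0.514 and Trim30b 0.518 had adjusted permutation p of 0.057 and 0.112. OSE-BPR tumours held few counts of Trim12a, Trim5, Trim30b and Trim30d, so counting error there enters the r of these genes.

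Against the macrophage list, Trim6 fell as the list rose, with r = -0.547 and rho = -0.609 (n = 26, permutation p = 0.00215 and 0.00422, adjusted p = 0.0172 and 0.0338). Within models its r was -0.718 in OSE-BPR, -0.849 in Ad-BPR, -0.0831 in Pax8-BPR and -0.745 in Ovgp1-BPR tumours. Without the 2 farthest tumours r was -0.54 (adjusted permutation p = 0.0455), and in the 12 GEMM tumours -0.439 (adjusted permutation p = 0.345). Trim30b gave 0.502 (adjusted permutation p = 0.0552, or 0.0458 by Spearman rho), and Trim12a gave r = -0.458. Both values include OSE-BPR tumours with few counts of these genes, where deviations from the group mean are largely counting error. None of the other 5 neighbours passed with this list.

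**Figure D5:**
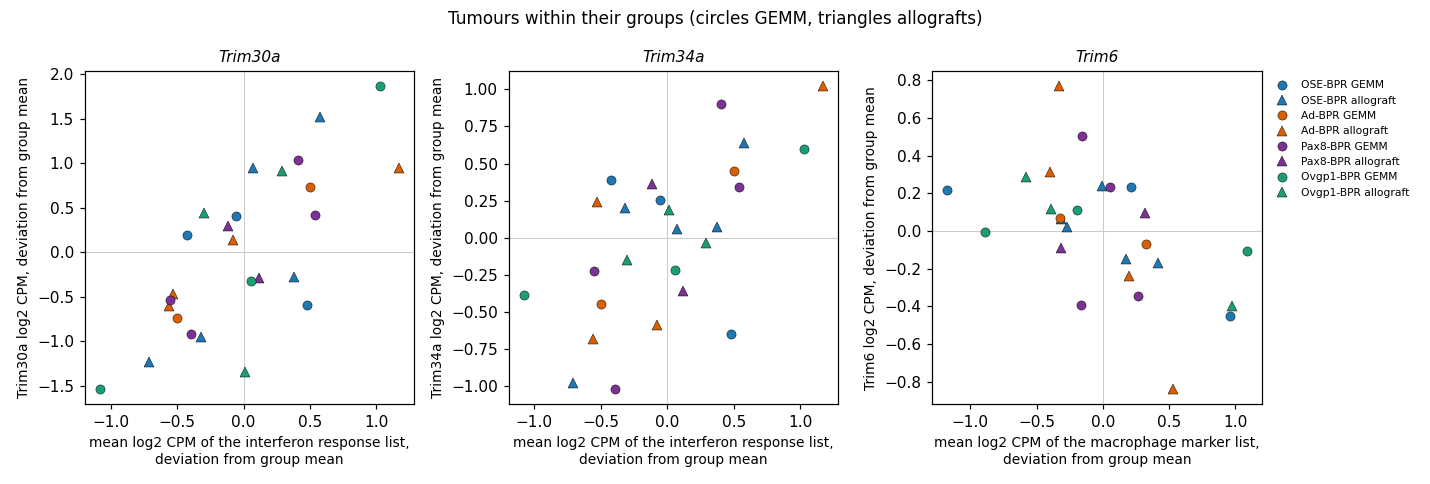
Deviation of log2 CPM from the group mean in each of the 26 tumours, for Trim30a and Trim34a against the interferon list and Trim6 against the macrophage list, coloured by model, with circles for GEMM tumours and triangles for allografts. Trim30a and Trim34a rise with the interferon list (r 0.738 and 0.622), and Trim6 falls with the macrophage list (-0.547).

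The genes most like Trim12a over all libraries lay on many chromosomes. Likeness was the Pearson correlation of log2 CPM among 20886 genes, given as a description, since the groups set most of it. Over all 32 libraries the closest genes with established symbols were Zfp973 on chromosome 2 (r = 0.976), Snhg9 (0.959), H2-T22 (0.958), Tmem181b-ps (0.956) and Rps2 (0.955), the last 4 on chromosome 17. Of the top 50 genes, which lay on 15 chromosomes, 28 were predicted genes, 3 were on chromosome 7 and 2 within 1 Mb of Trim12a. Trim5 was at rank 14 (0.948), Trim30d at 16 (0.945), Trim34a at 120 (0.826), Trim6 at 1972 (0.541) and Trim12c at 13979 (-0.266). Within the 18 oviduct-origin tumours the order changed, and Trim12c came first of all genes (r = 0.928). Of the top 50 genes there, 8 were on chromosome 7 and 3 within 1 Mb of Trim12a, on 12 chromosomes in all. The closest genes outside the cluster were then Plxna4 (0.923), Nt5c3 (0.91), Nod1 (0.901), Adgrf3 (0.90) and Impact (0.896). There Trim5 was at rank 29 (0.872), Trim6 at 50 (0.858) and Trim34a at 528 (0.767), while Trim30a (0.0938), Trim30d (-0.143) and Trim30b (-0.288) were far down the list. Trim12a and Trim12c thus varied in parallel among the oviduct-origin tumours, in which Trim12a held 34.2% to 55.2% of their counts.

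The number of genes with the on and off pattern of Trim12a depended on the limits. With at least 2 CPM in all 18 oviduct-origin tumours and at most 0.3 CPM in the other 14 libraries, limits set after seeing the data, there were 3 genes, namely Trim12a and the predicted genes Gm16867 and Gm6344 on chromosomes 14 and 13. The reverse pattern was met by 6 genes, all predicted, on 5 chromosomes. With at least 1 CPM and at most 0.5 CPM in place of these limits, 10 genes met the pattern, Trim12a, Trim30d and Zfp973 among them, and 19 the reverse. Of patterns that follow the strain label, 0 genes were present in C57Bl/6-labelled and absent in FVB-labelled libraries, and 1 gene, Pnlip, a pancreatic lipase gene, was the reverse. With the second pair of limits these were 1 gene, Hoxb2, and 4 genes. Within 1 Mb on either side of Trim12a, 147 annotated genes are not among the 8, and 5 to 7 of them had enough counts to be tested. Gm5900 was lower in oviduct-origin GEMM tumours than in oviduct (-3.13 ± 0.662, adjusted p = 0.00071) and than in OSE-BPR GEMM tumours (-2.87 ± 0.748, adjusted p = 0.0083), and lower between allografts (-2.35 ± 0.647, adjusted p = 0.0073). The olfactory receptor genes Olfr648 (2.45 ± 0.857, adjusted p = 0.04) and Olfr624 (-3.18 ± 1.13, adjusted p = 0.043) were called in OSE-BPR GEMM tumours against ovary, and Olfr624 was lower in oviduct than in ovary (-1.72 ± 0.414, adjusted p = 0.012). Hbb-bs (0.86 ± 0.227) and Hbb-bt (0.75 ± 0.231) were higher in oviduct than in ovary. Hbb-bt was higher in oviduct-origin than in OSE-BPR allografts (2.18 ± 0.764, adjusted p = 0.029).

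How reads were shared among the near-copies can be read in part from the expected counts. RSEM divides a read that fits several transcripts, which leaves counts that are not whole. Over the libraries where each gene was above 0, counts were fractional (more than 0.005 from a whole number) in 22 of 23 for Trim12a, 31 of 32 for Trim12c, 30 of 30 for Trim5, 24 of 24 for Trim30d, 24 of 32 for Trim30a and 32 of 32 for both Trim34a and Trim34b. They were fractional in 0 of 32 for Trim6 and 0 of 25 for Trim30b. Over 17506 genes with a mean count of at least 10, 14.3% of values were fractional. The genes with divided reads were thus those with near-copies, and the levels of Trim6 and Trim30b rest on reads assigned to them alone.

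Of the distinct 75-base stretches in each gene's annotated transcripts, 5.58% also occur in another gene for Trim12a, 17.3% for Trim12c, 20.6% for Trim5, 48.6% for Trim34a, 42.5% for Trim34b, 4.98% for Trim30a and 5.40% for Trim30d, and under 0.5% for Trim6 and Trim30b. Most of the annotated Trim12a sequence is thus its own at this length, and the share of Trim34a that is its own is the lowest of the 8. The Trim12a sequence includes a retained-intron transcript of 3730 bases, while its protein-coding transcripts have 1389 to 1531 bases. The shared part of the protein-coding transcripts alone was not measured, so 5.58% does not tell how many Trim12a reads are unambiguous. The gene lengths implied by count and TPM had a median of 1304 bases for Trim12a in oviduct-origin tumours. For Trim12c they were 3811 bases in oviduct-origin tumours, 3450 in OSE-BPR tumours and 3704 in normal tissue. Whether reads came from the gene to which they were assigned, and whether the strand was used in counting, cannot be read from the deposited values, so the split between Trim12a, Trim12c and Trim5, between Trim34a and Trim34b, and between Trim30a and Trim30d is uncertain.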

How the data were processed

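Bulk RNA of 26 tumours and 6 normal tissues was sequenced, and groups were taken from the sample labels. The submitters' processing notes name bcl2fastq, cutadapt 1.18, STAR 2.7.0f, RSEM 1.3.1 and Picard, with builds mm10 and GRCm38; their settings and the strandedness are not given in the sources used here. The authors deposited RSEM expected counts and TPM per gene, and all 55450 gene IDs were found in GENCODE M21. Fractional expected counts and TPM carry RSEM's division of reads between near-copies.

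Expected counts were rounded and tested with edgeR 4.0.16 (R 4.3.3; TMM, filterByExpr with a minimum count of 10, quasi-likelihood test, a mean per group, Benjamini-Hochberg over all genes tested). The 20887 genes of the 32-library fit served comparisons with normal tissue, 20000 genes of the 26 tumours those between tumours, and 17334 genes of the 6 normal libraries that between tissues. Models were weighted equally. The edgeR test against oviduct was first run on simulated counts with the same spread for every gene and changes only in well-counted genes. That run does not cover genes with counts near 0. Alternatives were DESeq2 1.42.0, RLE factors, no filter, limma 3.58.1 on log2(TPM + 1) or log2(TPM + 0.1), near-copies summed, only the groups compared, and each library left out.

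Ovary and oviduct samples with the same number come from the same animal, per the sample titles, so a fit with the animal as a block was run as well. Correlations used log2 CPM with a prior count of 2 and 100000 permutations. Members and gene lists were chosen with earlier results of these data known. Text names the 8 genes in every group, up to 4 called genes per list and comparison, called genes within 1 Mb and the 5 genes most like Trim12a that are not predicted. Gene pairs for shares, limits of presence, the contrast between tumour effects and the sums of Trim34a and Trim34b and of Trim30a and Trim30d were chosen after seeing the data. At these depths 3 counts correspond to 0.162 to 0.193 CPM in the OSE-BPR allografts, a limit that covers counting error only.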

Additional observations from a re-analysis of the deposited data

Results flagged for a closer look

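Trim34b, the near-copy of Trim34a that lies beside Trim12a, had a fold change of tumour over normal tissue that differed between origins. Its log2 fold change of tumour over normal tissue was -3.45 ± 0.387 from the oviduct and 1.98 ± 0.501 from the ovary, and the difference was -5.44 ± 0.662 (edgeR's quasi-likelihood test, adjusted p = 5.5e-06). In the same 32-library fit the sum of Trim34a and Trim34b gave a difference of -0.58 ± 0.602 (adjusted p = 0.586). The contrast was chosen after the data were seen, and the division of reads between both genes is uncertain. Its oviduct arm crosses the library split described above, which Trim34b itself shows, and its ovary arm does not. A tumour effect cannot be told apart from that split here.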

How the results depend on the processing

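The direction of each called neighbour held except where near-copies were added together. With Trim12a, Trim12c and Trim5 summed, the value read for Trim12c turned from negative to 0.78 against oviduct, 0.11 against OSE-BPR GEMM tumours and 0.44 between allografts, and 2 neighbours, Trim30b and Trim30d, were called between GEMM origins in place of 4. The sum took in Trim12c and Trim5, which leaves 6 features in place of 7, and since it holds Trim12a its own test is not read. With Trim34a and Trim34b summed, that for Trim34b turned to 1.12 against oviduct and 0.52 between allografts, and 1 neighbour in place of 0 was called between normal tissues. With Trim30a and Trim30d summed, Trim30d gave 1.58 between GEMM origins (adjusted p = 0.101). DESeq2 called 41 genes in allografts against GEMM tumours, where edgeR called 0. In GEMM tumours alone 0 genes tracked the interferon list and 0 the macrophage list, in place of 2 and 1, and without the 2 farthest tumours 1 tracked the interferon list. Fewer tumours enter both, and the cause of the remaining changes was not tested.

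Leaving out 1 library at a time, neighbours called ranged from 4 to 6 against oviduct, 1 to 3 in OSE-BPR GEMM against ovary, 3 to 4 between GEMM origins, 5 to 6 between allografts and 3 to 4 in Ovgp1-BPR, and were 0 in both comparisons with no call. Genes called ranged from 3114 to 4934 in OSE-BPR GEMM tumours against ovary (4842 with all; 3220 without OSE-BPR GEMM 3 and 3114 without ovary 2) and from 2695 to 5663 between GEMM origins (5202 with all; 3219 without OSE-BPR GEMM 2 and 2695 without 3). With the animal as a replicate block, 7971 genes were called between normal tissues in place of 9191, and 0 of 4 neighbours, and the pairing changed no call of a neighbour. Fitting only the groups compared called 4 neighbours against oviduct, losing Trim30a (adjusted p = 0.059) and Trim30b (0.055). By limma on log2(TPM + 1) the higher share of calls was 65.4% in place of 53.4% in Ovgp1-BPR tumours, and 42.4% in place of 53.8% in oviduct against ovary. Depth limits Trim30b, Trim30d, Trim5 and Trim12a where a library holds few counts.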

Other observations

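In Ovgp1-BPR against Ad-BPR and Pax8-BPR tumours, 3 of 5 tested Trim genes of the wider chromosome 7 region were higher by edgeR, where 42.4% of all genes were called (22.7% higher, 19.7% lower). They were Trim66 (log2 fold change 2.22 ± 0.477, adjusted p = 0.00099), Trim68 (0.99 ± 0.207, adjusted p = 0.00079) and Trim21, a cytosolic antibody receptor (0.98 ± 0.232, adjusted p = 0.0022). Of 11 tested Trim genes linked to innate immunity elsewhere, 5 were lower and 1 higher, against the same share of all genes. Trim65 (-1.73 ± 0.524), Trim27 (-1.53 ± 0.302), Trim25, which acts on the RNA sensor RIG-I (-1.15 ± 0.278), and Trim13 (-1.10 ± 0.353) were among the lower ones, and Trim32 was the higher one (0.97 ± 0.164). The interferon list was mixed in that comparison, with 2 of 27 genes higher and 5 lower (median log2 fold change -0.45, against -0.005 over all genes). Oas2 was lower (-2.06 ± 0.544) and Ifit2 higher (1.54 ± 0.278).

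In normal oviduct against ovary, 7 of the same 11 innate immunity Trim genes were called, against 53.0% of all genes. Trim62 (-1.12 ± 0.139) and Trim25 (-0.78 ± 0.0997) were lower in the oviduct and Trim65 (0.71 ± 0.122) was higher.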
